A study of Mus musculus with 6 samples.

Results

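The genes described here are 35 enzymes and regulators of the antioxidant response, taken by symbol from a list, and all 35 were found among the 26529 genes of the deposited table. The list holds 3 regulators around the transcription factor NRF2, the enzymes of glutathione synthesis and recycling, the thioredoxin system, the peroxiredoxins, glutathione peroxidases, superoxide dismutases with catalase, and a group of conjugating and reducing enzymes. RNA was sequenced from wild-type C57BL/6 bone marrow-derived macrophages of mice aged 8 weeks, all kept in medium with 20 ng/ml M-CSF, a macrophage growth factor, plus 10 ng/ml RANKL, which induces osteoclasts. Osteoclasts (OC) were the 3 libraries of cells cultured for 6 days, and osteoclast precursors (OCP) were the 3 libraries of cells cultured for 3 days. Both groups had the same genotype and the same cytokines, so the comparison is one of culture time under RANKL. Since the labels do not state that the replicates were different mice or cultures, each p-value reflects spread among these samples alone, and that spread may be technical.

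NRF2, the product of Nfe2l2, is held in the cytoplasm and passed to degradation by KEAP1. Oxidants and electrophiles release it, and with a small MAF partner it binds antioxidant response elements and raises transcription of enzymes that make glutathione, reduce thioredoxin and conjugate reactive compounds. BACH1 occupies the same elements as a repressor. In osteoclast precursors RANKL raises reactive oxygen species that act as a signal for differentiation, and loss of NRF2 in mice is known to raise osteoclast formation.

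Gene-level reads totalled 33219178 to 38113266 in OC and 36740844 to 42121216 in OCP. Levels are in RPKM, the number of reads per kilobase of gene, scaled to the reads assigned to genes in that library. The osteoclast markers went against the labelled stages. All 10 were detected and all 10 were lower in OC, with a summed level of 2730 to 2815 RPKM in OC and 5104 to 5261 RPKM in OCP. Acp5, which encodes the TRAP enzyme by which osteoclasts are stained, stood at 338 ± 13.0 RPKM in OC and 642 ± 26.8 RPKM in OCP (SD, n = 3 each). OC and OCP therefore stand for the libraries so labelled, and every direction given here rests on those labels. Of 9 tested macrophage markers 7 were higher in OC and 2 lower, and the sum over the list was 8165 to 8688 RPKM in OC and 5191 to 5641 RPKM in OCP. Of 4 tested neutrophil markers 4 were higher in OC, with sums over the list of 145.6 to 147.9 RPKM in OC and 65.8 to 71.4 RPKM in OCP, of which Lcn2, also expressed by macrophages, made up 95.7 ± 2.04 RPKM in OC and 31.7 ± 1.48 RPKM in OCP. Erythroid markers, of interest because red cell precursors are rich in peroxiredoxin 2 and catalase, summed to 0.135 to 0.418 RPKM in OC and 0.319 to 0.557 RPKM in OCP, and none was tested. Lymphoid markers summed to at most 0.0704 RPKM in OC and 0.0173 RPKM in OCP, and stromal markers to 3.23 to 3.48 RPKM in OC and 3.36 to 3.50 RPKM in OCP. The part of these marker differences in the results below was not tested. In bulk RNA, fewer cells of a type and less RNA per cell cannot be told apart.

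Promoters of members are shown for the letters of the antioxidant response element. RefSeq promoters on GRCm38.p6 (250 bases before to 50 after the start of a gene) matched 30 of the 35 members. The search used the core TGACNNNGC and the MAF-type element TGANTCAGC on both strands, and a site with the letters of both was counted under both. The core was present for 7 of the 30 members (23.3%), against 17.3% of 8004 tested genes with a promoter and 12.4% of all 32851 promoters. The MAF-type element was present for 3 of the 30 members (10.0%), against 1.41% of the tested genes and 1.19% of all promoters. Prdx1 and Srxn1 carried both patterns, Prdx1 at a single site and Srxn1 at separate sites. Prdx1 was higher in OC and Srxn1 lower. The core of Srxn1 lay 29 to 37 bases after the start, outside the stretch shown. Gstp1, lower in OC, carried the MAF-type element alone. The 250 bases before the start of Prdx5, the member with the largest difference, held neither pattern. The following lines give these upstream stretches 5′ to 3′ in the direction of the gene, with a matched element in capitals.
Prdx5, minus strand, chr19:6910107-6910356: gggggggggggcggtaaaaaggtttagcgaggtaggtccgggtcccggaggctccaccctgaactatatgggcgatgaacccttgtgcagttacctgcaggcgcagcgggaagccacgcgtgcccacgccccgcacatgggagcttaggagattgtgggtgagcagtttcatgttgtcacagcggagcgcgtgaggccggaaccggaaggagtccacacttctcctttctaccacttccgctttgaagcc
Prdx1, plus strand, chr4:116685349-116685598: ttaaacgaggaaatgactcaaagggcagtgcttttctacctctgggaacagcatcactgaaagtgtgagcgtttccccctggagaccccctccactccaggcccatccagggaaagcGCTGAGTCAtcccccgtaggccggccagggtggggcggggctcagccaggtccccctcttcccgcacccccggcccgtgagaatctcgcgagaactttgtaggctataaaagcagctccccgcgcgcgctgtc
Srxn1, plus strand, chr2:152105274-152105523: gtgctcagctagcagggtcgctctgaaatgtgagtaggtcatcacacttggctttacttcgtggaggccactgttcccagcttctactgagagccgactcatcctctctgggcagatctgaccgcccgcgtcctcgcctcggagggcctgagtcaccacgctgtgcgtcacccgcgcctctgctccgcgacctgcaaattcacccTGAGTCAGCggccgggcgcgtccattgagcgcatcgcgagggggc
Gstp1, minus strand, chr19:4037958-4038006: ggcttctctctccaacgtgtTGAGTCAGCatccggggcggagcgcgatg

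The remaining members with the core in this window before the RefSeq start are shown with 20 bases or fewer on each side. In the deposited table Mgst1 starts earlier, at base 138140316 of its chromosome, so its stretch lies inside that gene. Mgst1 was higher in OC, Gclm, Txnrd1 and Sod1 were lower, and Nfe2l2 did not pass the test, so the letters were found beside members of either direction. A match is a description of the sequence and not a site of binding.
Mgst1, plus strand, chr6:138140451-138140499: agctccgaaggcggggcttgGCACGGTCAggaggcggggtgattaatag
Gclm, plus strand, chr3:122245403-122245451: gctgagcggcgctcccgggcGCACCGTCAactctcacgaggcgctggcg
Txnrd1, plus strand, chr10:82859094-82859142: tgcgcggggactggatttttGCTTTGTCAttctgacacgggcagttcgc
Sod1, plus strand, chr16:90220686-90220734: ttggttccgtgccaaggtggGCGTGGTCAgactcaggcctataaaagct
Nfe2l2, minus strand, chr2:75704875-75704913: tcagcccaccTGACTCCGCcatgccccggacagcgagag

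Most of the antioxidant enzymes were lower in OC than in OCP, while peroxiredoxin 5 was 2.39 times as abundant in OC as in OCP. Genes were tested with limma on log2(RPKM + 1) where at least 3 of 6 libraries had at least 1 RPKM, with Benjamini-Hochberg adjustment across the 12301 genes that met this level. Of the 35 members 32 passed this filter. At a threshold of 0.05 on the adjusted p, 28 of the 32 differed, where 55.6% of all tested genes did. Of the 32, 21 (65.6%) were lower in OC, where 32.1% of all tested genes were lower, and 7 (21.9%) were higher, where 23.5% of all tested genes were higher. The remaining 4 did not pass. With TMM scaling 7 members were higher and 20 lower, where 26.3% of all tested genes were higher and 28.2% lower, and with quantile normalization 7 were higher and 20 lower, where 23.1% and 33.2% were. With a filter on a mean of at least 5 RPKM, 6 members were higher and 19 lower, where 1645 and 2904 of 7228 tested genes were. The median log2 fold change, OC minus OCP, was -0.29 over the 32 members and -0.05 over all 12301 tested genes. In the 21 lower members every OC library lay below every OCP library, and in the 7 higher members every OC library lay above, where 36.0% and 26.7% of all tested genes were separated in these directions and 62.7% in either. The summed level of the 35 members did not separate the groups. It was 2484, 2453 and 2411 RPKM in OC, against 2499, 2445 and 2417 RPKM in OCP, and the values of the groups overlapped.

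**Figure D1:**
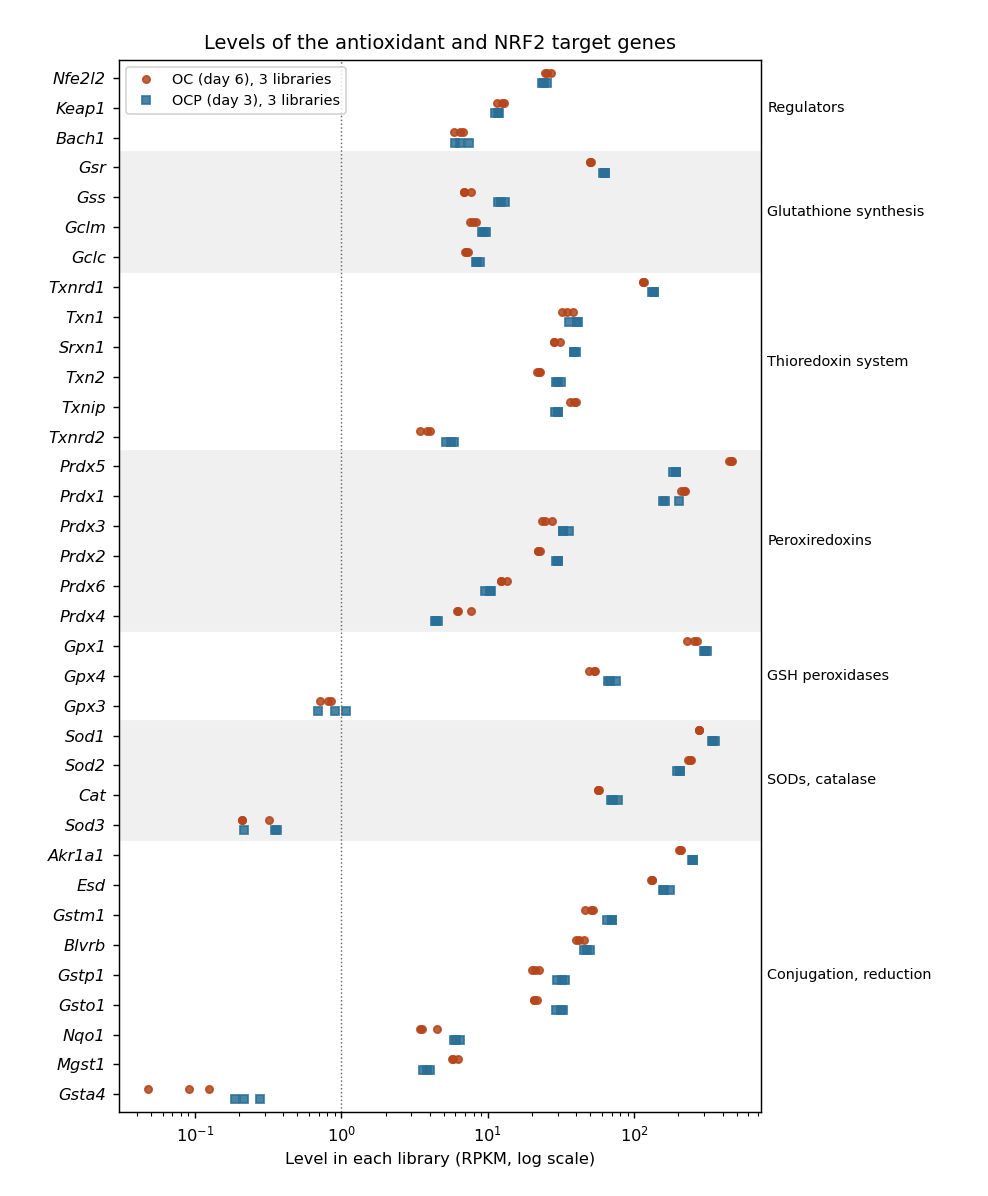
Level of each of the 35 members in every library (RPKM, log axis), OC as circles above OCP as squares, grouped by role; the dotted line marks the filter of 1 RPKM. Prdx5 had the highest mean level of all members in OC (454 RPKM) and Sod1 in OCP (347 RPKM). Gpx3, Sod3 and Gsta4 did not meet the filter, and of their values only that of Gpx3 in OCP replicate 2 (1.07 RPKM) lay above the line.

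**Figure D2:**
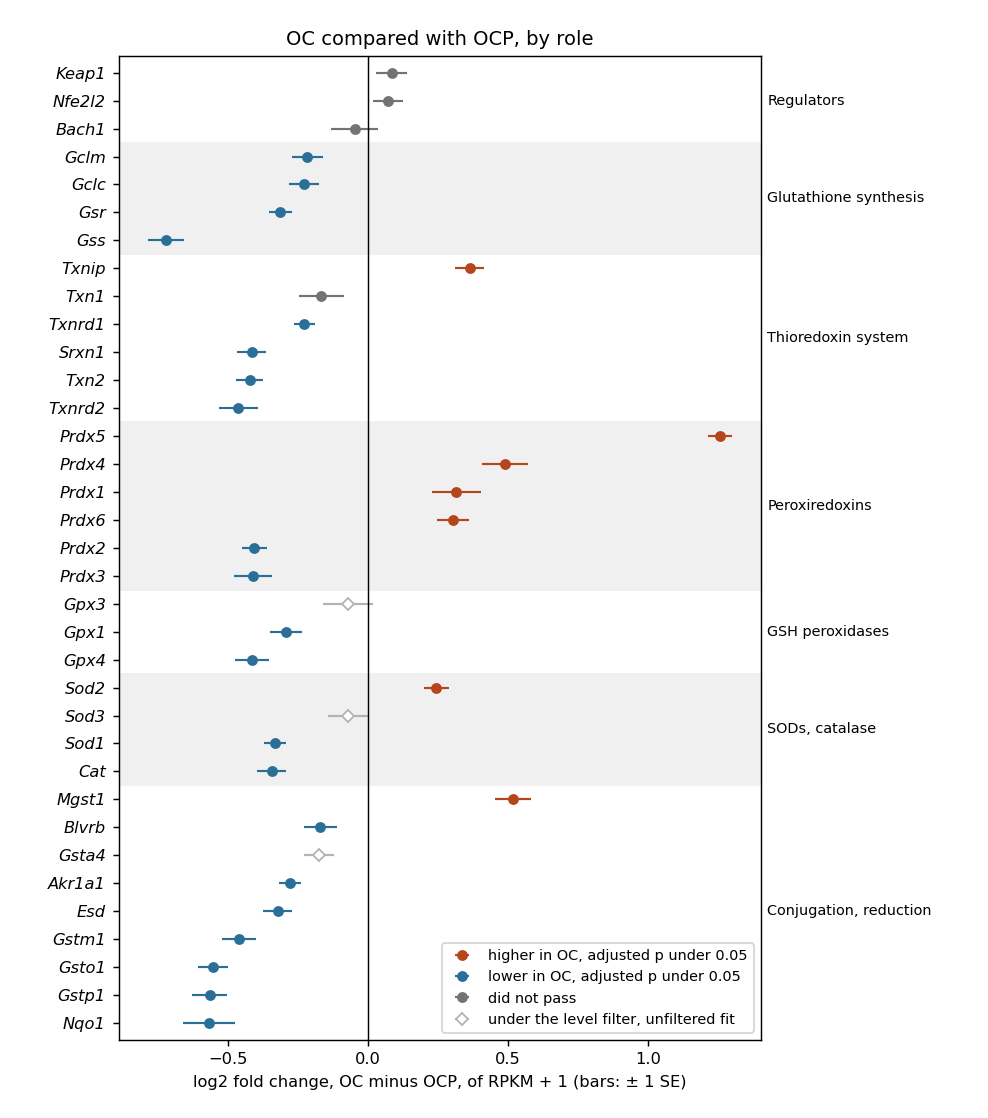
Log2 fold change, OC minus OCP, of RPKM + 1 for each member, with bars of 1 SE, by role and call. Prdx5 stood at 1.26 and Gss at -0.72, the ends of the range over tested members.

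The regulators showed no difference that passed the test. Nfe2l2, which encodes NRF2, stood at 25.5, 24.6 and 27.0 RPKM in OC, against 25.4, 23.6 and 24.2 RPKM in OCP. Its log2 fold change was 0.07 (95% interval -0.05 to 0.19, adjusted p = 0.28 in limma). Keap1, the adaptor that hands NRF2 to a ubiquitin ligase, stood at 13.0, 12.5 and 11.5 RPKM in OC, against 11.2, 11.9 and 11.7 RPKM in OCP (0.08, 95% interval -0.05 to 0.22). Bach1, the repressor, stood at 6.49, 5.84 and 6.78 RPKM in OC, against 6.45, 5.99 and 7.44 RPKM in OCP (-0.05, 95% interval -0.24 to 0.15). The groups overlapped for all 3 genes, and the ratio of Nfe2l2 to Keap1 within a library was 2.09 ± 0.214 in OC and 2.11 ± 0.146 in OCP (SD, n = 3 each). These are transcript levels, and NRF2 is controlled mostly as a protein. Keap1 shares 510 bases of exon with the antisense gene Gm16754, at 12.2 ± 0.848 RPKM in OC and 11.3 ± 0.105 RPKM in OCP. The sources used here do not state how strand was used in counting, so reads of such a pair cannot be told apart.

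All 4 genes of glutathione synthesis and recycling were lower in OC, where 32.1% of all tested genes were lower. Gss, which encodes glutathione synthetase, the second step of synthesis, lies on chr2:155563181-155592810 (GRCm38, minus strand). It stood at 7.69, 6.86 and 6.84 RPKM in OC, against 12.4, 13.1 and 11.7 RPKM in OCP. This was the largest fall among tested members (log2 fold change -0.72, SE 0.07, limma adjusted p = 5.6e-05). Its exons overlap those of Acss2 and of the antisense genes Gssos1 and Gssos2, and Gssos1 stood at 2.89 ± 0.228 RPKM in OC and 5.46 ± 0.479 RPKM in OCP.
Gclc and Gclm encode the catalytic and modifier subunits of glutamate-cysteine ligase, the first and limiting step. Gclc stood at 7.32, 6.97 and 7.06 RPKM in OC, against 8.38, 8.28 and 8.87 RPKM in OCP, and Gclm at 8.32, 7.58 and 7.93 RPKM in OC, against 9.67, 9.09 and 9.41 RPKM in OCP. Their log2 fold changes were -0.23 and -0.22 (adjusted p = 0.0065 and 0.01 in limma). The ratio of the subunits overlapped between the groups, at 0.896 ± 0.0204 in OC and 0.907 ± 0.0380 in OCP. Gclm shares exon sequence with the pseudogene Gm6061 on its own strand, at 42.6 ± 3.83 RPKM in OC and 52.8 ± 1.94 RPKM in OCP, so its level is uncertain. Gsr, the reductase that regenerates glutathione with NADPH, stood at 50.6, 49.7 and 49.5 RPKM in OC, against 63.2, 62.7 and 60.9 RPKM in OCP (-0.31, SE 0.04, limma adjusted p = 0.00035).

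In the thioredoxin system the reductases, the mitochondrial thioredoxin and sulfiredoxin were lower in OC, and the thioredoxin inhibitor was higher. Txnrd1, the cytosolic thioredoxin reductase, stood at 114, 116 and 114 RPKM in OC, against 135, 131 and 136 RPKM in OCP (log2 fold change -0.23, limma adjusted p = 0.0015). Its mitochondrial counterpart Txnrd2 stood at 3.99, 3.86 and 3.46 RPKM in OC, against 5.19, 5.89 and 5.63 RPKM in OCP (-0.46, limma adjusted p = 0.00078). Both reductases are selenoproteins, and Txnrd1 was 30.5 ± 2.23 times as abundant as Txnrd2 in OC and 24.2 ± 1.89 times in OCP. Txn2, the mitochondrial thioredoxin, stood at 22.8, 22.5 and 21.7 RPKM in OC, against 30.2, 31.3 and 29.1 RPKM in OCP (-0.42, limma adjusted p = 0.00018). Srxn1 encodes sulfiredoxin, which repairs over-oxidised peroxiredoxins and is a standard NRF2 target. It stood at 31.1, 28.1 and 28.4 RPKM in OC, against 39.8, 38.9 and 38.8 RPKM in OCP (-0.41, limma adjusted p = 0.00029). Cytosolic Txn1 stood at 34.5, 31.9 and 38.2 RPKM in OC, against 40.6, 35.7 and 41.3 RPKM in OCP, with overlapping groups. Txn1 did not pass the test (-0.17, 95% interval -0.35 to 0.02, limma adjusted p = 0.11), but it passed without OC replicate 3 or without OCP replicate 2 (adjusted p = 0.038 in each).

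Txnip encodes the protein that binds and inhibits thioredoxin and restrains glucose uptake. It stood at 40.0, 39.0 and 36.4 RPKM in OC, against 30.3, 28.7 and 29.98 RPKM in OCP (log2 fold change 0.36, SE 0.05, limma adjusted p = 0.00055). Its level was above that of Txn1 in 2 of the 3 OC libraries and below it in every OCP library. Txnip shares 606 bases of exon with the antisense gene Gm15441, which stood at 43.1 ± 2.74 RPKM in OC and 32.9 ± 1.01 RPKM in OCP, so the difference cannot be assigned to either gene of the pair.

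The peroxiredoxins, thiol peroxidases that remove hydrogen peroxide, went both ways, with 4 higher and 2 lower in OC. Of all tested genes 23.5% were higher and 32.1% lower. Prdx5, an atypical peroxiredoxin found in mitochondria, peroxisomes and the cytosol, lies on chr19:6906697-6910106 (GRCm38, minus strand). It stood at 458, 461 and 443 RPKM in OC, against 194, 192 and 184 RPKM in OCP. The ratio of means was 2.39 and the log2 fold change 1.26 (SE 0.04, limma adjusted p = 2.4e-07). Exons of Prdx5 overlap 409 bases of Trmt112 on the opposite strand, and Trmt112 did not pass the test, at 57.3 ± 1.18 RPKM in OC and 60.9 ± 2.49 RPKM in OCP.
Prdx4, the peroxiredoxin of the endoplasmic reticulum, stood at 6.14, 7.65 and 6.23 RPKM in OC, against 4.41, 4.59 and 4.34 RPKM in OCP (0.49, limma adjusted p = 0.0014). Prdx6 uses a single cysteine and also acts on phospholipids. It stood at 13.5, 12.4 and 12.3 RPKM in OC, against 10.5, 9.57 and 10.3 RPKM in OCP (0.30, limma adjusted p = 0.0026). Prdx1, the abundant cytosolic form and a known NRF2 target, stood at 220.1, 208 and 217 RPKM in OC, against 200.2, 162 and 158 RPKM in OCP. OCP replicate 1 lay nearest to OC. Prdx1 passed (0.32, SE 0.09, limma adjusted p = 0.016), and the call was lost without OC replicate 1 or OCP replicate 2 or 3, and also when unfiltered (adjusted p from 0.052 to 0.055).

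Prdx2 and Prdx3 were the peroxiredoxins with lower levels in OC. Cytosolic Prdx2 stood at 22.8, 21.8 and 22.0 RPKM in OC, against 30.1, 29.2 and 29.9 RPKM in OCP (-0.40, limma adjusted p = 0.00014). Prdx2 shares exon bases with Rnaseh2a and Junb on the opposite strand, so its level is uncertain. Junb stood at 96.6 ± 4.35 RPKM in OC and 74.6 ± 4.42 RPKM in OCP. Rnaseh2a stood at 10.6 ± 0.429 RPKM in OC and 14.0 ± 0.468 RPKM in OCP. Mitochondrial Prdx3, the partner of Txn2, stood at 23.3, 24.6 and 27.2 RPKM in OC, against 35.5, 32.7 and 32.4 RPKM in OCP (-0.41, limma adjusted p = 0.0012). The makeup of the family shifted with these changes. Prdx5 made up 61.7 ± 0.908% of the summed peroxiredoxin RPKM in OC and 43.1 ± 2.01% in OCP, and Prdx1 29.2 ± 0.829% in OC and 39.2 ± 2.59% in OCP. The sum over the 6 genes was 744, 735 and 727 RPKM in OC, against 474, 429.9 and 418 RPKM in OCP, while the sum without Prdx5 was 286, 274 and 284 RPKM in OC, against 281, 238 and 235 RPKM in OCP. Without Prdx5 the groups overlapped.

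**Figure D3:**
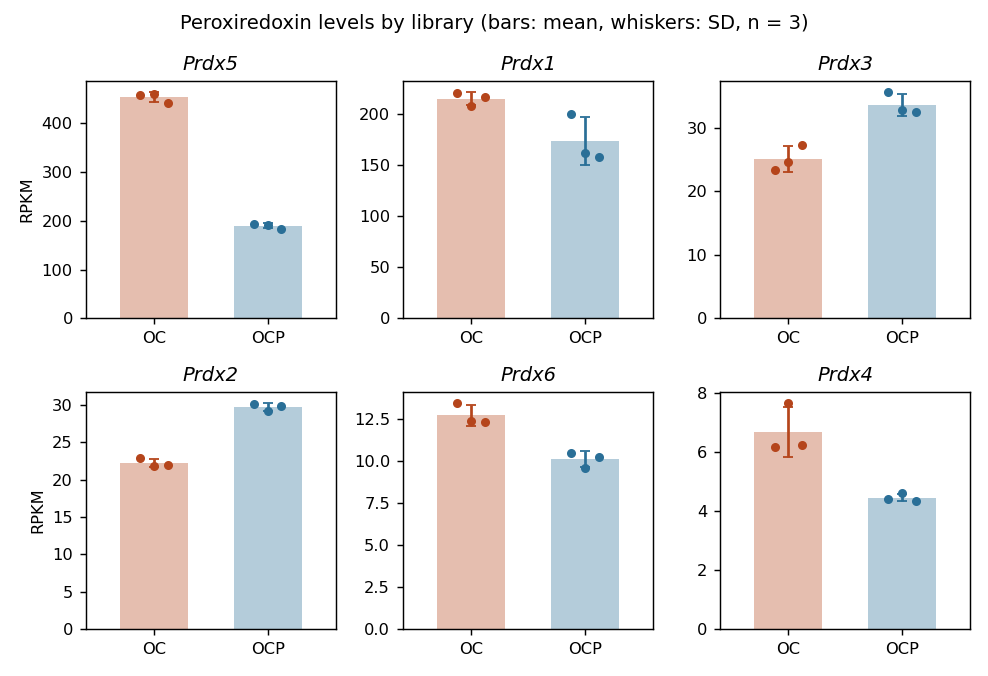
Level of each peroxiredoxin gene by library (RPKM, linear axes from 0), OC left of OCP; bars are means, whiskers SD and points the 3 libraries. Prdx5, Prdx1, Prdx6 and Prdx4 were higher in OC and Prdx3 and Prdx2 lower, with no overlap between the groups. The groups did not overlap for 62.7% of all tested genes.

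Both expressed glutathione peroxidases were lower in OC, where 32.1% of all tested genes were lower. Gpx1, the cytosolic selenoenzyme that reduces hydrogen peroxide with glutathione, stood at 254, 266 and 229.7 RPKM in OC, against 304, 311 and 301 RPKM in OCP (log2 fold change -0.29, SE 0.06, limma adjusted p = 0.0031). Gpx4 reduces lipid hydroperoxides and protects from ferroptosis. It stood at 54.2, 52.9 and 49.1 RPKM in OC, against 68.2, 74.6 and 66.2 RPKM in OCP (-0.41, limma adjusted p = 0.00068). Gpx1 was 4.80 ± 0.195 times as abundant as Gpx4 in OC and 4.39 ± 0.198 times in OCP. Gpx3, the secreted plasma form, was under the filter at 0.851, 0.714 and 0.810 RPKM in OC, against 0.904, 1.07 and 0.691 RPKM in OCP, and the groups overlapped (unfiltered limma adjusted p = 0.61).

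The superoxide dismutases went in opposite directions. Sod2, the manganese enzyme of mitochondria and a known target of NF-kappaB, stood at 240.5, 233 and 244 RPKM in OC, against 194, 204 and 206 RPKM in OCP (log2 fold change 0.24, SE 0.04, limma adjusted p = 0.0018). Sod1, the copper-zinc enzyme of the cytosol, stood at 277, 275 and 275 RPKM in OC, against 356, 344 and 341 RPKM in OCP (-0.33, SE 0.04, limma adjusted p = 0.00021). The ratio of Sod1 to Sod2 was 1.15, 1.18 and 1.13 in OC, against 1.83, 1.69 and 1.65 in OCP, with no overlap. Cat, the peroxisomal catalase, stood at 56.5, 56.7 and 57.6 RPKM in OC, against 77.2, 69.1 and 71.4 RPKM in OCP (-0.34, limma adjusted p = 0.00071). Sod3, the extracellular form, was under the filter, with 0.247 ± 0.0641 RPKM in OC and 0.310 ± 0.0816 RPKM in OCP, and its groups overlapped.

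The mitochondrial members did not move as one. Sod2 and Prdx5 were higher in OC, whereas Prdx3, Txn2 and Txnrd2 were lower. Within a library the ratio of Prdx5 to Prdx3 was 19.7, 18.7 and 16.3 in OC, against 5.44, 5.86 and 5.67 in OCP. Prdx5 is not restricted to mitochondria, so this ratio compares transcripts and not mitochondrial protein.

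**Figure D4:**
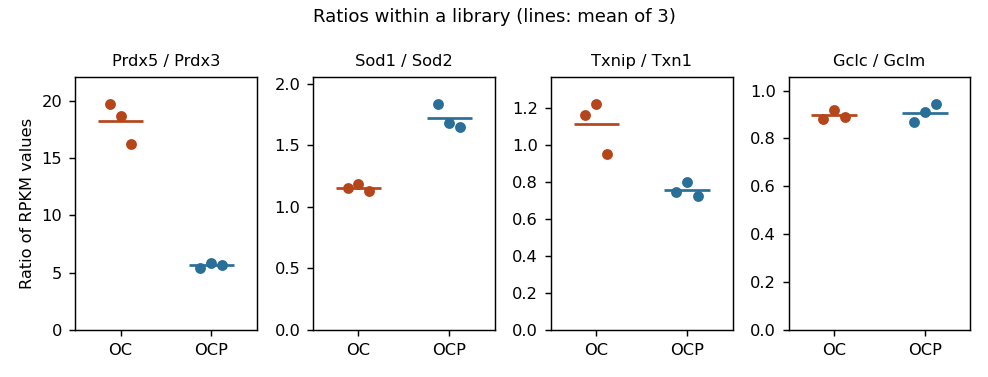
Ratios of RPKM between pairs of members within each library, OC left of OCP, with lines at the mean of 3. The Prdx5 to Prdx3 and Txnip to Txn1 ratios were higher in OC and the Sod1 to Sod2 ratio lower, while Gclc to Gclm ratios overlapped.

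Among the conjugating and reducing enzymes 7 were lower in OC, 1 was higher and 1 was under the filter. Of all tested genes 32.1% were lower and 23.5% higher. Nqo1 encodes a quinone reductase that is the most used readout of NRF2 activity. It stood at 4.53, 3.53 and 3.45 RPKM in OC, against 6.01, 5.89 and 6.48 RPKM in OCP (log2 fold change -0.57, SE 0.09, limma adjusted p = 0.0011). Of the glutathione S-transferases, which couple glutathione to electrophiles, Gstp1 stood at 22.5, 20.1 and 21.0 RPKM in OC, against 29.7, 33.7 and 32.1 RPKM in OCP (-0.56, limma adjusted p = 0.00016). Gstm1 stood at 52.4, 50.4 and 45.8 RPKM in OC, against 65.0, 70.5 and 69.8 RPKM in OCP (-0.46, limma adjusted p = 0.00041). Both have near-identical relatives. The coding sequence of Gstp2 matched that of Gstp1 at 98.1% identity, and the copies of Gstp1 and Gstm1 in the table held 4.21% and 15.5% as many reads as these genes, so the split of reads among them is uncertain.
Gsto1, an omega-class transferase that also reduces dehydroascorbate, stood at 20.7, 21.6 and 20.5 RPKM in OC, against 29.2, 32.7 and 31.7 RPKM in OCP (-0.55, limma adjusted p = 8.9e-05). Mgst1, the microsomal transferase, was the exception. It stood at 5.82, 5.65 and 6.26 RPKM in OC, against 3.59, 3.85 and 4.03 RPKM in OCP (0.52, SE 0.06, limma adjusted p = 0.00027). Gsta4, which conjugates the lipid aldehyde 4-hydroxynonenal, was near the detection limit with 4, 2 and 6 reads in OC, against 10, 14 and 10 reads in OCP. It did not pass in the unfiltered fit (adjusted p = 0.056), but it passed, lower in OC, when values were quantile normalized or when limma ran with neither trend nor robust options (adjusted p = 0.03 in each).

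Blvrb, Esd and Akr1a1 had the smallest falls of this group that passed the test. Akr1a1, the aldehyde reductase that also makes ascorbate precursors in mice, stood at 209.6, 206 and 200.3 RPKM in OC, against 251, 251 and 246 RPKM in OCP (-0.28, limma adjusted p = 0.00056). Esd, an S-formylglutathione hydrolase of formaldehyde removal, stood at 131, 129 and 132 RPKM in OC, against 175, 156 and 160.2 RPKM in OCP (-0.32, limma adjusted p = 0.0011). Blvrb, the NADPH-dependent biliverdin and flavin reductase, stood at 45.1, 41.9 and 39.9 RPKM in OC, against 45.5, 49.8 and 47.7 RPKM in OCP. It passed narrowly (-0.17, SE 0.06, limma adjusted p = 0.038), with OC replicate 1 close to OCP replicate 1, and the call was lost in 11 of 16 alternatives, with adjusted p = 0.13 under TMM scaling and 0.094 to 0.12 without OC replicate 2 or 3 or OCP replicate 2 or 3.

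Genes around this set were counted from lists of the same pathway. Of 21 tested NRF2 targets outside the 35 members 11 were higher in OC and 7 lower, with a median log2 fold change of 0.14, where 23.5% of all tested genes were higher and 32.1% lower, with a median of -0.05. These shares are the background for each list that follows. Akr1b3, the aldose reductase, stood at 32.0 ± 0.807 RPKM in OC and 9.41 ± 0.272 RPKM in OCP, and the epoxide hydrolase Ephx1 at 9.21 ± 0.934 RPKM in OC and 3.55 ± 0.0923 RPKM in OCP (limma adjusted p = 8.7e-08 and 9.2e-06). On the log2(RPKM + 1) scale, by which genes of these lists were chosen, Akr1b8 and Pgd had the largest falls, at 172 ± 7.75 and 72.2 ± 3.61 RPKM in OC, against 286 ± 3.05 and 112 ± 3.00 RPKM in OCP. By the ratio of means the low gene Trim16, named after its values were seen, fell further, at 2.02 ± 0.218 RPKM in OC and 3.63 ± 0.0488 RPKM in OCP. Named after their values were seen, the heme oxygenase Hmox1 stood at 659 ± 26.3 RPKM in OC and 332 ± 11.4 RPKM in OCP, and the ferritin heavy chain Fth1 at 11999.8 ± 249 RPKM in OC and 6636 ± 179 RPKM in OCP. Both handle heme or iron and are also regulated outside NRF2, and the cause of their higher levels in OC was not tested.

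Among 10 tested NRF2 partners and related regulators 5 were higher and 3 lower in OC. The small MAF genes Maff and Mafk, whose products pair with NRF2 or BACH1, rose to 14.0 ± 1.13 and 19.1 ± 1.26 RPKM in OC, against 5.57 ± 0.381 and 13.5 ± 0.736 RPKM in OCP (limma adjusted p = 7.2e-06 and 0.00042). Dpp3, which competes with NRF2 for KEAP1, and Park7 fell to 31.5 ± 2.24 and 98.7 ± 4.16 RPKM in OC, against 48.7 ± 1.29 and 134 ± 5.99 RPKM in OCP.

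Enzymes that supply NADPH, the reductant of both the glutathione and thioredoxin systems, were higher in 4 and lower in 6 of 16 tested cases, near the shares over all tested genes (23.5% and 32.1%). G6pdx, Pgd, Tkt, Taldo1 and Me1 of this list were also counted among the NRF2 targets above. Pgd and Taldo1 of the pentose phosphate pathway were lower, with Taldo1 at 75.3 ± 1.13 RPKM in OC and 114 ± 3.36 RPKM in OCP. The malic enzyme Me1 was higher, at 9.54 ± 0.612 RPKM in OC and 5.52 ± 0.163 RPKM in OCP, as was the mitochondrial NAD kinase Nadk2, at 4.03 ± 0.389 RPKM in OC and 2.95 ± 0.0331 RPKM in OCP. Of 14 other tested glutathione enzymes 8 were lower and 1 was higher. Chac1, which degrades glutathione, stood at 4.26 ± 0.175 RPKM in OC and 16.7 ± 0.973 RPKM in OCP, and Mgst3 at 6.75 ± 0.813 RPKM in OC and 13.1 ± 0.987 RPKM in OCP. The glyoxalase Glo1 was the single riser, at 9.67 ± 0.343 RPKM in OC and 7.68 ± 0.561 RPKM in OCP.

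Of 15 tested glutaredoxins, thioredoxin-like proteins and methionine sulfoxide reductases 3 were higher in OC and 6 lower, also near the shares over all tested genes. The cytosolic glutaredoxin Glrx and the thioredoxin-like Txndc12 stood at 57.1 ± 2.31 and 57.9 ± 2.04 RPKM in OC, against 32.0 ± 2.69 and 48.3 ± 0.891 RPKM in OCP. The mitochondrial iron-sulfur glutaredoxin Glrx5 and the sestrin Sesn2 stood at 49.6 ± 4.66 and 7.66 ± 0.696 RPKM in OC, against 83.4 ± 2.00 and 13.1 ± 0.811 RPKM in OCP. The phagocyte NADPH oxidase, a source of superoxide, had 2 higher and 1 lower of 7 tested genes. Cybb, its catalytic subunit, stood at 203 ± 10.2 RPKM in OC and 87.8 ± 8.38 RPKM in OCP, and Ncf1 at 122 ± 1.71 RPKM in OC and 77.7 ± 4.01 RPKM in OCP, while Ncf4 was lower, at 62.8 ± 2.20 RPKM in OC and 80.1 ± 4.36 RPKM in OCP. Cybb is also a macrophage gene. Of 9 tested macrophage markers 7 were higher in OC and 2 lower, and any link to the level of Cybb was not tested.

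**Figure D5:**
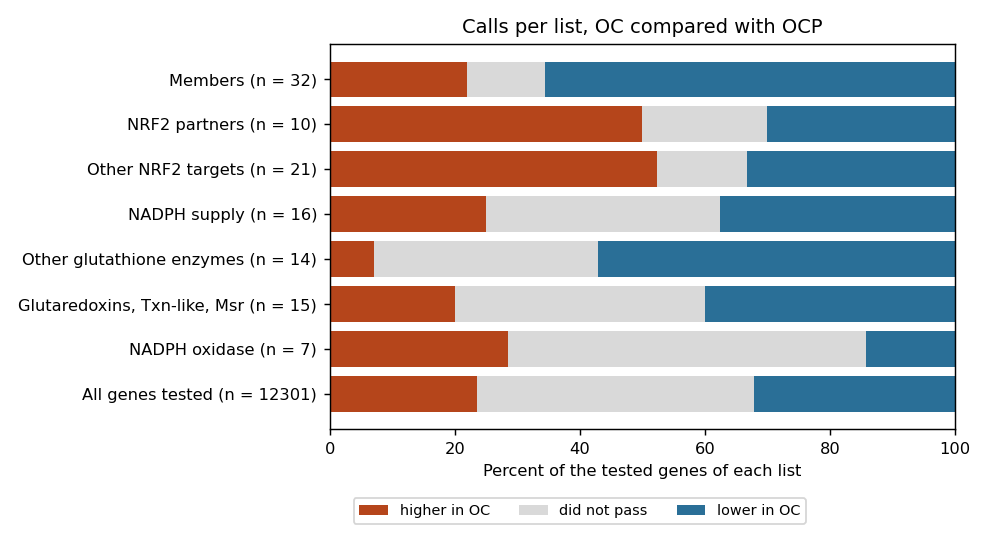
Share of the tested genes of each list that were higher in OC, did not pass, or were lower in OC (threshold 0.05 on the adjusted p), with all 12301 tested genes in the lowest bar. Of the members 65.6% were lower, against 32.1% of all tested genes.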

How the data were processed

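Poly(A)-selected RNA from 3 OC and 3 OCP samples was sequenced from stranded libraries, per the labels' protocols. The authors deposited RPKM values for each gene and sample. Trimmomatic 0.36, STAR 2.5.3a and featureCounts are named in the submitters' processing notes, which name the build GRCh38, while the gene coordinates in the deposited table are those of mouse GRCm38. The sources used here give no setting for strand or for multi-mapping reads. RPKM multiplied by gene length gave whole reads for 100% of values, within 0.01 read, so depth is known; 3 reads on a gene of 1 kb equal 0.0712 to 0.0903 RPKM, which covers counting error only.

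Testing was limited to genes that reached 1 RPKM in 3 or more of the 6 libraries and used limma 3.58.1 (R 4.3.3, trend and robust options) on log2(RPKM + 1), two-sided, with Benjamini-Hochberg adjustment over 12301 genes. Fold changes on this scale understate the change of low genes. The fit was also run on simulated reads with far fewer changed genes than were called here. That run does not give its error rate on these data. Alternatives were other pseudocounts, filters and scalings, a replicate block, leaving out each library, and voom on the recovered reads. Coding sequences of GENCODE M21 were compared with blastn 2.17.0 (at least 90% identity over 150 bases) to find copies of members, and exon overlaps were taken from the same annotation. All 35 members were named. From each further list up to 2 risers and 2 fallers were named, those of greatest log2 change that passed. The members and lists were chosen with earlier results of these data known.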

Additional observations from a re-analysis of the deposited data

How the results depend on the processing

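Of 28 members that passed the test, 23 kept their call and direction in all 16 alternatives. Mgst1, Nqo1 and Txnrd2 kept theirs in the 15 that tested them, being left out by a filter on a mean of at least 5 RPKM. The exceptions were Prdx1 and Blvrb. The count of members higher in OC was 7, with 6 to 7 when single libraries were left out and 6 to 7 in the other alternatives. The count lower in OC was 21, with 20 to 21 when single libraries were left out and 19 to 21 otherwise. Across all genes 2889 were higher in OC (2524 to 2932 with single libraries left out) and 3954 lower (3370 to 3784). The filter on a mean of at least 5 RPKM tested 7228 genes and left 1645 higher and 2904 lower. The median log2 fold change over the 7228 genes was -0.09, against -0.05 over the 12301. A larger share of the 7228 was thus lower than the 32.1% over all tested genes. Voom on recovered reads with a mean of at least 10 reads, chosen after seeing the data, gave 4187 higher and 4062 lower, so that higher genes outnumbered lower ones there. For Bach1, which did not pass, the log2 fold change lay between -0.1085 and 0.0281 with single libraries left out, changing sign without OC replicate 2 (0.0055) and without OCP replicate 3 (0.0281); the cause was not tested. Blvrb had adjusted p from 0.055 to 0.23 where its call was lost, the highest after quantile normalization.

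Samples share replicate numbers, but deviations of same-numbered samples correlated at -0.115 to 0.143, and 1 of 3 pairs was above 0.1, so the numbers were not taken as pairs. With the replicate block 2827 genes were higher and 3851 were lower; under this block Txn1 passed (adjusted p = 0.032) and Blvrb did not (adjusted p = 0.064). Gpx3, Sod3 and Gsta4 were under the filter of 1 RPKM, and Gsta4 had 2 to 14 reads a library.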
